A study of Homo sapiens with 9 samples.

Results

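The genes described here encode the machinery that trims and degrades RNA in the nucleus and the complex that cuts nascent transcripts: the RNA exosome, its NEXT and PAXT adaptors with their shared helicase, and Integrator. They were 30 genes listed by GENCODE symbol and matched by Ensembl identifier, of 60609 gene identifiers in the count tables. Of the 30, 11 encode exosome subunits (EXOSC1 to EXOSC10 and DIS3), 5 encode the helicase MTREX, the NEXT subunits ZCCHC8 and RBM7 and the PAXT subunits ZFC3H1 and PABPN1, and 14 encode Integrator subunits (INTS1 to INTS14). RNA was sequenced from U2-OS cells, an established human osteosarcoma line. The titles and the extraction protocol name removal of ribosomal RNA, which is followed here, while the molecule label names polyA RNA. By their labels, 6 of the libraries are from 2 clones made to overexpress NCBP2, the cap-contacting subunit of the nuclear cap-binding complex, 3 per clone (A1 and A4, each with libraries A, B and C). The other 3 libraries, vector replicates A, B and C, came from 3 separate clones that went through the same procedure with an empty vector. All groups were thus selected clones of one line. Results for the 6 NCBP2 libraries together rest on 2 clones, and those for clone A1 or clone A4 against vector on a single NCBP2 clone. The labels do not call the libraries of an NCBP2 clone separate cultures, so the p-values measure only the spread between these libraries.

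The exosome degrades RNA from its 3′ end. EXOSC4 to EXOSC9 form a ring without catalytic activity, EXOSC1 to EXOSC3 cap the ring with RNA-binding domains, and the nucleases DIS3 and EXOSC10 are attached to it. In the nucleus MTREX unwinds substrates for the exosome, and the cap-binding complex reaches it through ARS2 and either NEXT, which handles short unprocessed transcripts, or PAXT, which handles longer polyadenylated ones. Integrator cleaves small nuclear RNA precursors and the nascent RNA of many other genes through its endonuclease subunit INTS11, and it also recruits the phosphatase PP2A.

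No difference in level between NCBP2-overexpressing and vector cells passed the test for any of the 30 genes. All 30 had enough counts to be tested, and the number past an adjusted p of 0.05 by edgeR's quasi-likelihood test was 0 when the 6 NCBP2 libraries were compared with the 3 vector libraries, where 0.0184% of the 21682 genes tested passed. It was 0 also for clone A1 against vector (0.0646% of all genes passed), for clone A4 against vector (0.115%) and for clone A4 against clone A1 (0.161%). At an unadjusted p under 0.05 the counts were 0, 0, 0 and 1 of 30, beside 5.71%, 7.51%, 5.25% and 6.63% of all genes, and the lowest adjusted p over the 30 genes was 0.916, 0.683, 1 and 0.675 in the same order. DESeq2's Wald test also called 0 of the 30 in each comparison, beside 108, 274, 185 and 246 of the 21682 genes. It gave 1, 1, 0 and 1 of the 30 at an unadjusted p under 0.05, where its share over all genes was not computed. In bulk RNA, fewer cells of a type and less RNA per cell cannot be told apart. The 4 comparisons share libraries, so they are not independent of each other.

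The intervals bound what these libraries could have shown. The 95% interval of the log2 fold change lay wholly between -1 and 1, that is within a doubling or halving, for 27 of the 30 genes in the NCBP2 arm, 21 in clone A1 against vector, 25 in clone A4 against vector and 23 in clone A4 against clone A1. The genes whose intervals reached past a doubling in the NCBP2 arm were EXOSC4 and EXOSC5 upward, and INTS11 reached past a halving downward. The median log2 fold change over the 30 genes was 0.08 in the NCBP2 arm, 0.17 in clone A1, 0.01 in clone A4 and -0.20 between the clones, beside 0.02, -0.02, 0.03 and 0.04 over all genes tested. Fitted values were above 0 for 20, 20, 16 and 9 of the 30, beside 53%, 48.4%, 53.6% and 53.2% of all genes. These medians moved with single libraries. Without vector replicate B they were 0.015, 0.075 and -0.097 in the 3 comparisons with vector, and without clone A1 replicate A they were 0.113 for clone A1 against vector and -0.103 between the clones. Without clone A4 replicate A the median for clone A4 against vector was -0.055. The plot of fold changes shows each gene with its interval.

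**Figure D1:**
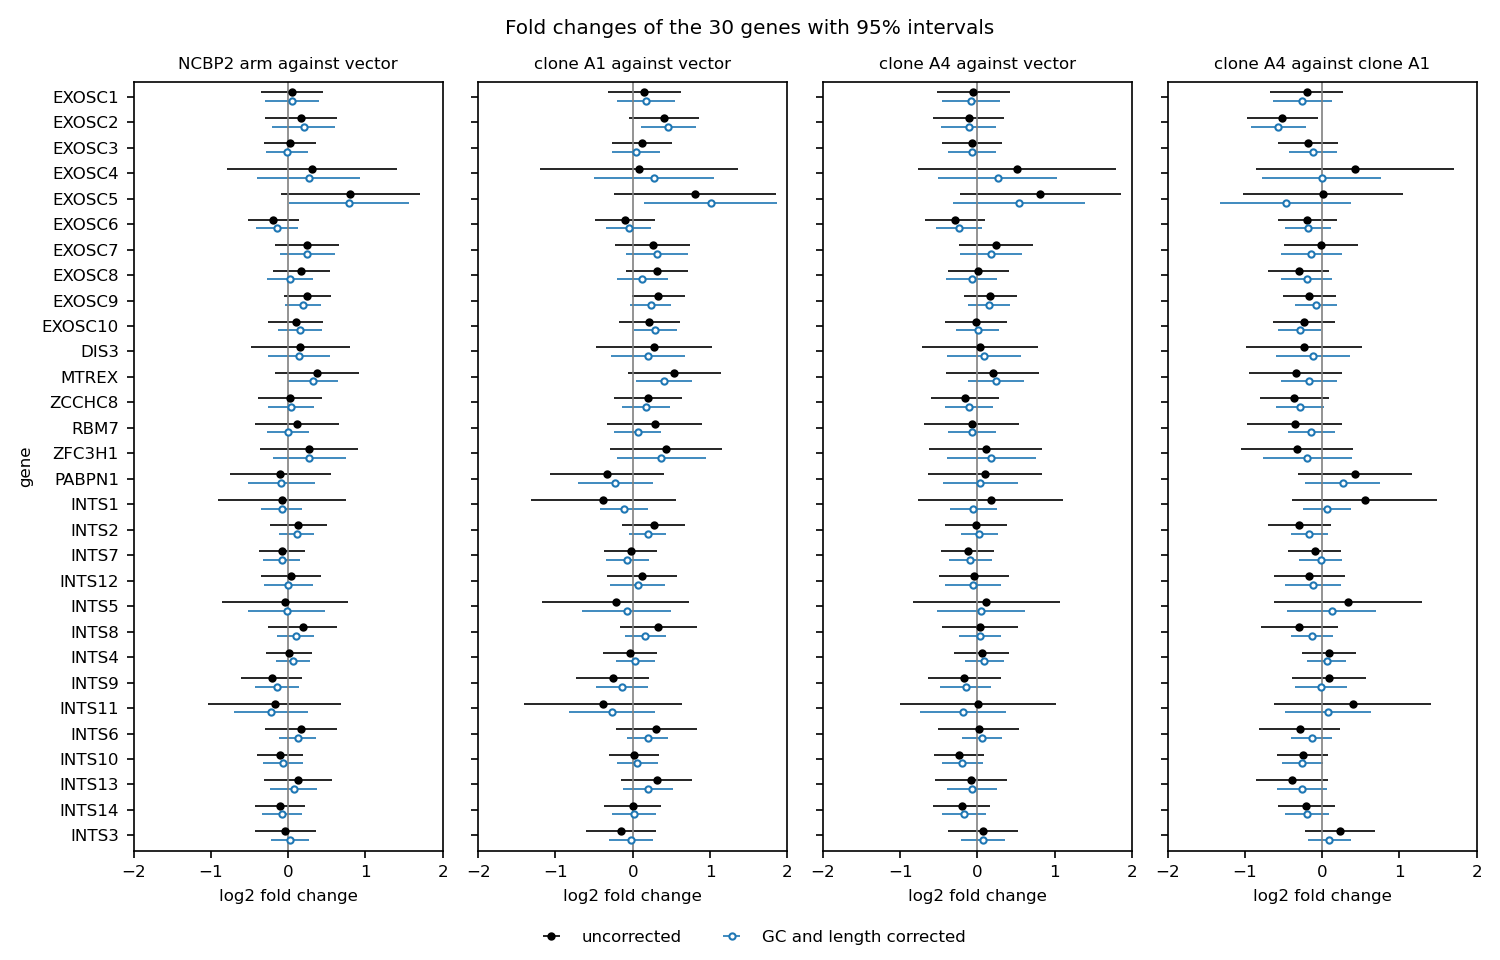
Log2 fold change of each of the 30 genes (vertical axis, by complex) in the 4 comparisons (panels), with 95% intervals as lines; filled black points are edgeR's fit and open blue points the fit corrected for GC content and transcript length. Black intervals cross 0 for all genes but EXOSC2 between the clones, and the widest belong to EXOSC4, EXOSC5, INTS1, INTS5 and INTS11.

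Library totals and markers were examined first. Counts in genes ranged from 29234022 to 50554080 per library, of which the 30 genes held 54893 to 77051, or 0.1375% to 0.1878%. NCBP2 was at 298.9, 348.4 and 304.7 CPM in the clone A1 libraries (CPM are counts relative to the library's total in genes, with TMM factors; libraries in the order A, B, C here and below), at 796.3, 1035 and 456.2 CPM in those of clone A4 and at 98.41, 90.63 and 98.3 CPM with empty vector, as the labels have it. Its log2 fold change by edgeR was 2.495 in the NCBP2 arm (SE 0.407, adjusted p = 0.123), 1.73 in clone A1 (SE 0.242, adjusted p = 0.0327) and 2.99 in clone A4 (SE 0.254, adjusted p = 0.000417), so the arm as a whole did not pass the test while each clone did. Of the line's mesenchymal markers, COL1A1, SPARC, VIM and RUNX2 were abundant, and LGALS1 had 2335 to 18897 counts. S100A6 had 347 to 1474 counts, and ALPL, at 49 to 211, and COL1A2, at most 59, were low. Over the 8 mesenchymal markers the summed level ran from 3782 to 4723 CPM in clone A1, 4566 to 5570 CPM in clone A4 and 5360 to 6397 CPM with empty vector. VIM lay below vector in all 6 NCBP2 libraries, a separation found in this direction for 2.26% of all genes. Its log2 fold change was -0.43 (SE 0.124 and adjusted p = 0.501 by edgeR). TERT, which U2-OS cells lack, and the blood genes CD3E and HBB had 0 counts in every library. The other markers of blood, endothelial and epithelial cells were low and not all absent: PTPRC had 17 to 57 counts, CDH5 0 to 54, VWF 0 to 89, EPCAM 97 to 266, ESRP1 0 to 40 and CDH1 17 to 186. CDH1 also lay below vector in all 6 NCBP2 libraries (log2 fold change -0.98, SE 0.383, adjusted p = 0.746 by edgeR). Of the 14 markers with enough counts to be tested, these 2 did not overlap, beside 3.74% of all genes in either direction. The part of these markers in the results was not tested. Clone A1 replicate A stood apart, with 21823 genes detected beside 25390 to 29787 in the others.

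Several libraries shifted the 30 genes in the order of their base composition. In clone A1 replicate A, the 15 genes whose canonical transcript has under 45% G and C lay mostly above their 9-library mean of log2 CPM (13 of 15, median difference 0.38). All 9 genes with at least 50% lay below it (median -0.88), from EXOSC7 at -0.07 to INTS11 at -1.76. Vector replicate B had the opposite order: 1 of the 15 genes low in G and C was above the mean (median -0.44, lowest DIS3 at -1.03) and 7 of the 9 rich genes were above it (median 0.49, highest EXOSC4 at 0.76). These bounds of 45% and 50% were chosen after the values were seen. Coding stretches of the 2 genes at each end in clone A1 replicate A are printed here from the GRCh38 reference to show the difference in composition. Each is the 120-base window within 1 coding exon of the canonical GENCODE 44 transcript whose share of G and C is nearest to that of the whole transcript. The stretches are on the strand of the gene, and capitals mark G and C.
INTS11, exon 4, chr1:1319353-1319472, minus strand: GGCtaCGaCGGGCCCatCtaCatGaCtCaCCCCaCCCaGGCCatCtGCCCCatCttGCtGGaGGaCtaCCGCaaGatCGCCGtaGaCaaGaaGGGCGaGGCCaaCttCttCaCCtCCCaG
INTS5, exon 2, chr11:62647030-62647149, minus strand: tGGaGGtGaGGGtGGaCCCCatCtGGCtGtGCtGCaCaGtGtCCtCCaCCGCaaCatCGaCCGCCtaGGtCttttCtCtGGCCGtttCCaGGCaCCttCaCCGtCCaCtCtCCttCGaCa
RBM7, exon 2, chr11:114401698-114401817, plus strand: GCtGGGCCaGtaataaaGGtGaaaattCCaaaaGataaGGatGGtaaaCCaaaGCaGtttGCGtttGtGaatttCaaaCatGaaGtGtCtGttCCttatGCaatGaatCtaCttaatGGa
ZFC3H1, exon 5, chr12:71644138-71644257, minus strand: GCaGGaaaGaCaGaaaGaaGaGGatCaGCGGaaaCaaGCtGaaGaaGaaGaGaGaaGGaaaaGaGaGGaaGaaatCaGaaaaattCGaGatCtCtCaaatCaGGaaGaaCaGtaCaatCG
G and C made up 73 of the 120 bases in INTS11 and 72 in INTS5, which were at -1.76 and -1.64 in that library, and 44 in RBM7 and 49 in ZFC3H1, which were at 0.66 and 0.73.

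**Figure D2:**
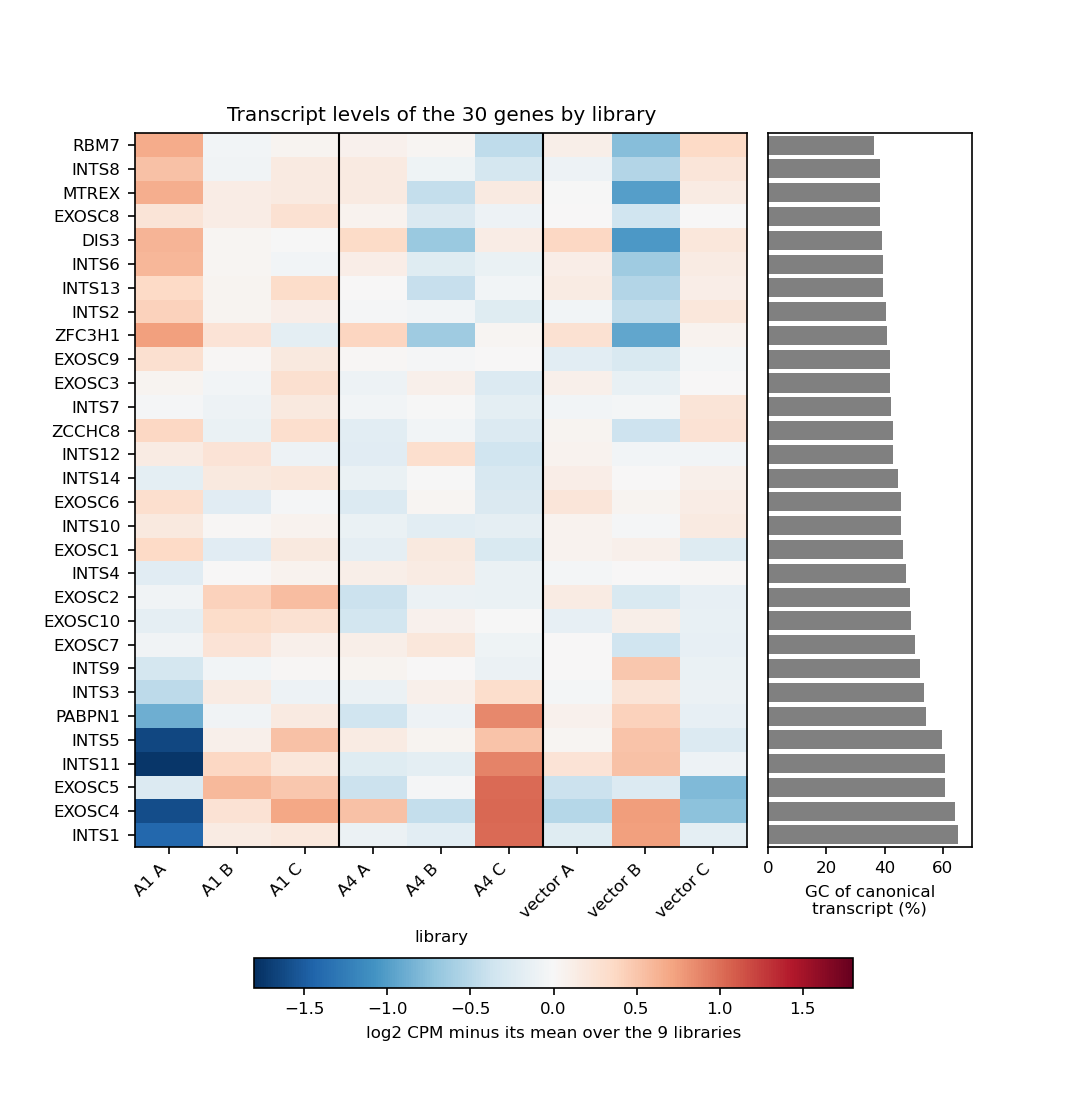
Level of each of the 30 genes (rows, ordered by the share of G and C in the canonical transcript, grey bars) in each of the 9 libraries (columns), as log2 CPM minus the gene's mean over the libraries (colour scale). Clone A1 replicate A runs from red at the top to blue at the bottom, and vector replicate B and clone A4 replicate C run the other way.

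Across the 30 genes, Pearson's r between the G and C share and the difference from the mean was -0.91 in clone A1 replicate A and -0.79 in vector replicate C. It was 0.83 in clone A4 replicate C and 0.82 in vector replicate B. The other 5 libraries lay between -0.48 and 0.45. The signs were the same across the 7921 genes with a mean log2 CPM of at least 4, with r of -0.78, -0.61, 0.56 and 0.73 in those 4 libraries. These are correlations across genes of 1 library, which share that library's depth and the mean they are set against, and genes are not replicates. Libraries with r of either sign occurred within clone A1, within clone A4 and among the vector libraries. The median SD of the 30 genes within a group was 0.24 on the log2 CPM scale, beside a median range of 0.33 between the 3 group means. The SD exceeded that range for 14 of the 30 genes (46.67%), beside 45.76% of all genes tested.

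**Figure D3:**
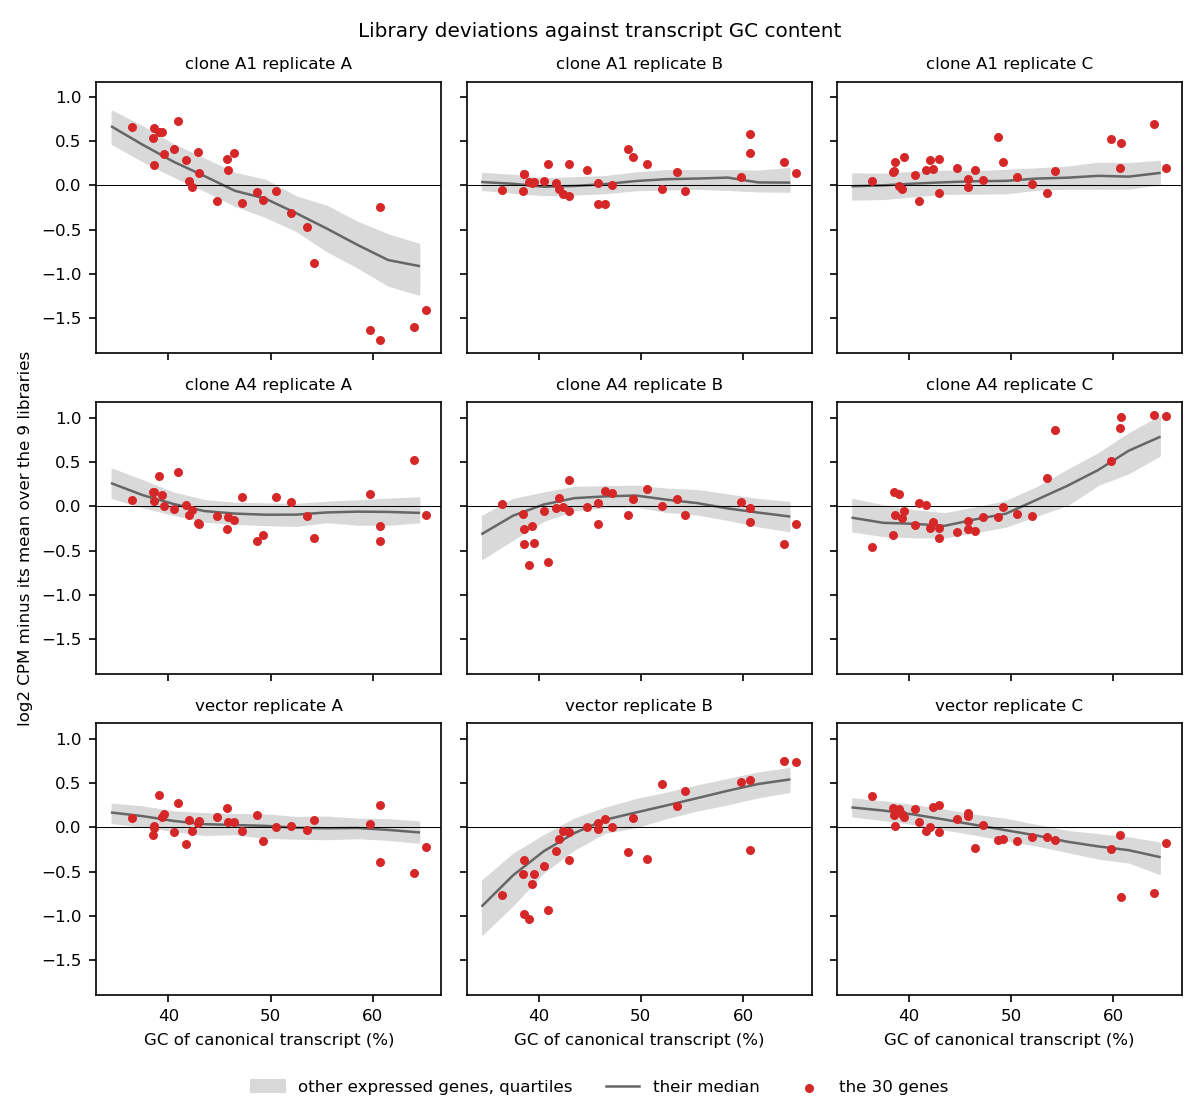
Difference of log2 CPM from the 9-library mean (vertical axis) against the share of G and C in the canonical transcript (horizontal axis, %) in each library (panels). Red points are the 30 genes. The grey line and band are the median and quartiles of all genes with a mean log2 CPM of at least 4. They include those of the 30 that reach this level, although the key says other genes. The 30 genes follow the slope of the grey line, falling in clone A1 replicate A and rising in vector replicate B and clone A4 replicate C.

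A correction for base composition and length was added after the data were seen. It lowered the median standard errors and made no call. With an offset fitted per library to G and C share and transcript length, 0 of the 30 were called at an adjusted p of 0.05 in any of the 4 comparisons. Over all genes so fitted, 49, 184, 135 and 188 of 21586 were called. The median standard error over the 30 genes was 0.138 in the NCBP2 arm, beside 0.192 without the correction, and 0.148 in the clone comparisons, beside 0.214. Intervals lay within a doubling or halving for 29, 28, 28 and 29 of the 30 genes. At an unadjusted p under 0.05 the counts were 1, 4, 0 and 2 of 30, beside 9.06%, 12.6%, 8.95% and 10.2% of all genes so fitted, and the lowest adjusted p was 0.534, 0.244, 0.728 and 0.161. INTS1, the gene richest in G and C, was at 0.55 between the clones before the correction (SE 0.434) and at 0.06 after it (SE 0.145).

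RNA levels per length placed the exosome genes far apart, also within the ring. Ring and cap proteins are found in equal numbers in the complex, but protein was not measured here, and RNA and protein are unlike measures. TPM, which are counts per length scaled to a common total, were computed first with the length of all annotated exons of a gene. By that measure EXOSC10, the nuclear 3′ exonuclease, had the highest mean of the exosome genes (52.5 TPM over 9 libraries, 44.3 to 65.8) and EXOSC5, a ring subunit, the lowest (1.43 TPM, 0.77 to 2.92). With the length of the canonical transcript alone, the same genes stood at the ends, with 82.1 TPM for EXOSC10 and 3.88 TPM for EXOSC5. EXOSC9 (75.4 TPM) and EXOSC8 (67.6 TPM) followed EXOSC10 by that measure, and EXOSC4 (9.32 TPM) was next to the lowest. The ranges of EXOSC8, EXOSC9 and EXOSC10 over the libraries overlapped, so their order is not settled. The length used matters most for EXOSC8, which has 13092 bases of annotated exons and a canonical transcript of 1166 bases.

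MTREX was the most abundant of the adaptor genes by either length, with a mean of 63.95 TPM by all exons and 74.7 TPM by the canonical transcript. ZCCHC8, the scaffold of NEXT, was the lowest by either, with 16.9 and 26.9 TPM. By the canonical transcript RBM7 was at 54.6, PABPN1 at 30.4 and ZFC3H1 at 28.7 TPM, and the ranges of PABPN1, ZFC3H1 and ZCCHC8 overlapped. Of the Integrator genes, INTS13 was highest by all exons (55.2 TPM, 34.3 to 69.3) and INTS11 lowest (4.21 TPM, 1.06 to 7.64). By the canonical transcript INTS14 (57.8 TPM) and INTS10 (54.6 TPM) were above INTS13 (46.7 TPM), and INTS5 (5.25 TPM) lay below INTS11 (11.9 TPM). The low genes EXOSC4, EXOSC5, INTS5 and INTS11 are all rich in G and C.

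**Figure D4:**
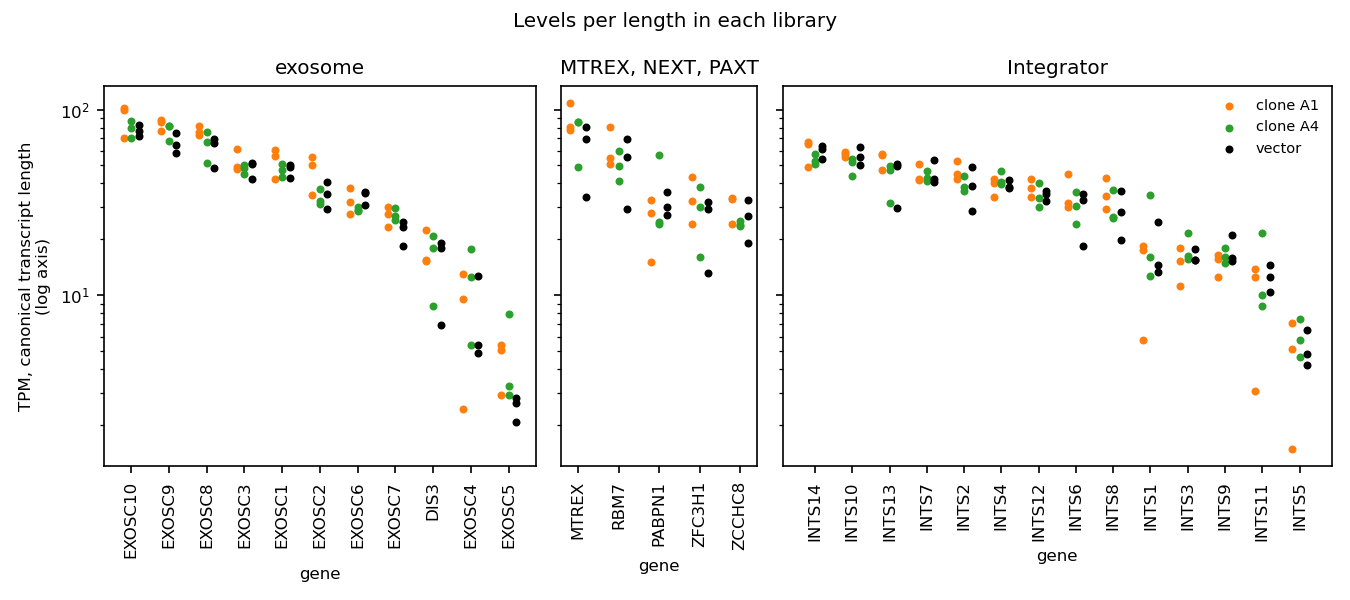
TPM by canonical transcript length (vertical axis, log scale) of each of the 30 genes (horizontal axis, by complex and falling mean) in each library (points; orange clone A1, green clone A4, black vector). Points of the 3 groups interleave for most genes, and EXOSC4, EXOSC5, INTS1, INTS5 and INTS11 spread most.

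Exosome genes were mostly fitted above 0 in the NCBP2 arm (10 of 11, median log2 fold change 0.17), as against 53% of all genes, with no gene past the test. The count was 8 of 11 (median 0.11) without vector replicate B, 9 of 11 (median 0.13) without clone A1 replicate A and 9 of 11 after the correction for base composition and length, and it was lowest, at 7 of 11, in the limma voom fit with library quality weights. In clone A4 against vector 6 of 11 were above 0 (median 0.01) and in clone A1 against vector 10 of 11 (median 0.26). Of the ring subunits, EXOSC5 had the largest fitted difference. EXOSC5 (ENSG00000077348.9, chr19:41386371-41397362 on GRCh38, minus strand) was at 1.372, 2.474 and 2.304 CPM in the clone A1 libraries, at 1.238, 1.615 and 3.359 CPM in those of clone A4 and at 1.235, 1.366 and 0.927 CPM with empty vector, each time in the order A, B, C. All values are low, from 38 to 150 counts, and the NCBP2 arm overlapped the vector libraries while clone A1 lay just above them, the closest pair at 1.372 and 1.366 CPM. The log2 fold change was 0.81 (SE 0.415 and adjusted p = 0.916 by edgeR) in the NCBP2 arm. It was 0.81 in clone A4 (SE 0.48, adjusted p = 1), and 0.26 there without clone A4 replicate C, the highest library. In clone A1 it was 0.80. After the correction for base composition and length it was 0.79 in the NCBP2 arm (adjusted p = 0.534 by edgeR). The corrected values were 1.01 in clone A1 (adjusted p = 0.303 by edgeR) and 0.54 in clone A4.

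EXOSC9 was the one gene of the 30 whose 6 NCBP2 libraries all exceeded the 3 vector libraries, a separation found in either direction for 3.74% of all genes (1.47% with the NCBP2 libraries above and 2.26% below). EXOSC9 (ENSG00000123737.12, chr4:121801318-121817021, plus strand) is another ring subunit. It was at 66.55, 55.58 and 61.70 CPM in the clone A1 libraries, at 55.22, 53.69 and 54.99 CPM in those of clone A4 and at 47.83, 45.27 and 53.11 CPM with empty vector. The lowest NCBP2 library and the highest vector library differed by little, and the fold change did not pass the test, with a log2 value of 0.25 (SE 0.141 and adjusted p = 0.979 by edgeR). Its exons overlap those of the cyclin gene CCNA2 on the opposite strand, and 38.5% to 48.5% of the stranded counts at EXOSC9 were antisense. Counted without regard to strand its log2 fold change was 0.15.

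The remaining ring genes gave EXOSC7 at 0.25, EXOSC8 at 0.17, EXOSC4 at 0.31 and EXOSC6 at -0.19 in the NCBP2 arm. EXOSC6 was at 92.27, 65.01 and 74.14 CPM in the clone A1 libraries, at 63.07, 77.01 and 62.68 CPM in those of clone A4 and at 87.58, 77.71 and 82.29 CPM with empty vector. Clone A4 thus lay below vector, at -0.29 on the log2 scale (SE 0.177 and adjusted p = 1 by edgeR). EXOSC7 overlapped between the groups, at 11.51, 14.22 and 12.89 CPM in the clone A1 libraries, at 12.99, 13.85 and 11.35 CPM in those of clone A4 and at 12.11, 9.387 and 10.86 CPM with empty vector. Of the annotated exon bases of EXOSC7, 13.6% lie also in CLEC3B on the same strand, so its counts are uncertain. EXOSC8 was at 42.05, 39.09 and 43.08 CPM in the clone A1 libraries, at 37.28, 29.98 and 33.43 CPM in those of clone A4 and at 36.11, 27.79 and 36.06 CPM with empty vector. Clone A1 lay above both other groups for EXOSC8, with a log2 fold change against vector of 0.31 (SE 0.183 and adjusted p = 0.744 by edgeR). After the correction for base composition and length it was 0.12 in clone A1 and 0.03 in the NCBP2 arm. EXOSC4 had from 28 to 285 counts and its highest library was 6.476 times its lowest, so its interval in the NCBP2 arm ran from -0.80 to 1.41. Antisense counts were 25.3% to 68.5% of the stranded counts at EXOSC4 and 19.3% to 35.4% at EXOSC8. In total 3 of the 30 genes (EXOSC5, EXOSC8 and EXOSC9) did not overlap between clone A1 and vector, beside 14.3% of all genes (6.18% above and 8.09% below), and all lay above vector.

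EXOSC2 had the lowest p of the 30 genes between the clones. EXOSC2 (ENSG00000130713.16, chr9:130693721-130707288, plus strand) is a cap subunit that binds RNA at the entrance of the ring. It was at 33.08, 46.11 and 50.84 CPM in the clone A1 libraries, at 26.54, 32.42 and 31.98 CPM in those of clone A4 and at 38.41, 28.61 and 31.33 CPM with empty vector. All clone A4 libraries lay below all clone A1 libraries, the nearest pair at 32.42 and 33.08 CPM, and the vector libraries overlapped both clones. The log2 fold change of clone A4 against clone A1 was -0.52 (SE 0.211, 95% interval -0.97 to -0.06), under 0.05 by edgeR before adjustment and not after it (adjusted p = 0.675). Over the alternatives run it lay between -0.72 and -0.38 with adjusted p from 0.0765 to 0.92, and at -0.57 (adjusted p = 0.161) after the correction for base composition and length.

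The chromosomal neighbours of EXOSC2 were on the same side of 0 in the clone comparisons that involve clone A1. The 40 tested genes nearest to it on chromosome 9 (20 on each side) had a median log2 fold change of -0.21 between the clones and 0.32 for clone A1 against vector, where EXOSC2 itself was at 0.40 (SE 0.21 and adjusted p = 0.708 by edgeR). For clone A4 against vector the neighbours were at 0.12 and EXOSC2 at -0.11. Gene dosage was not measured, and the part of the neighbourhood in the values of EXOSC2 was not tested. For MTREX the neighbours' median was 0.004 in the NCBP2 arm and -0.04 in clone A1, and for EXOSC5 it was -0.07 and -0.35, below the gene's own positive values.

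The other cap genes and the nucleases lay near 0 in the NCBP2 arm, with EXOSC1 at 0.05, EXOSC3 at 0.03, EXOSC10 at 0.10 and DIS3 at 0.16. DIS3, which has both exonuclease and endonuclease activity, is low in G and C and ran from 35.99 CPM in vector replicate B to 112.2 CPM in clone A1 replicate A. Its interval in the NCBP2 arm was -0.48 to 0.80.

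MTREX (ENSG00000039123.16, chr5:55307989-55425579, plus strand) had the largest fitted difference among the helicase and adaptor genes. It was at 203.4, 141.6 and 145.4 CPM in the clone A1 libraries, at 145, 96.59 and 145.1 CPM in those of clone A4 and at 129.5, 65.4 and 143 CPM with empty vector. Clone A1 replicate A was the highest library and vector replicate B the lowest, while most of the others lay close together and the groups overlapped. The log2 fold change was 0.38 in the NCBP2 arm (SE 0.251 and adjusted p = 0.999 by edgeR) and 0.54 in clone A1 (SE 0.278 and adjusted p = 0.702 by edgeR). Without vector replicate B these were 0.10 and 0.26. After the correction for base composition and length they were 0.32 (SE 0.152 and adjusted p = 0.553 by edgeR) and 0.40 (SE 0.169, adjusted p = 0.332).

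The NEXT and PAXT genes gave no difference past the test. ZCCHC8, which bridges MTREX and RBM7, was at 65, 45.92 and 61.51 CPM in the clone A1 libraries, at 44.06, 48.3 and 42.14 CPM in those of clone A4 and at 51.84, 38.6 and 59.77 CPM with empty vector. Its groups overlapped, and its log2 fold change was 0.03 in the NCBP2 arm and -0.36 between the clones (SE 0.205 and adjusted p = 0.799 by edgeR). RBM7, the RNA-binding subunit of NEXT, was at 0.12 in the NCBP2 arm and ranged from 51.36 CPM in vector replicate B to 138.4 CPM in clone A1 replicate A. ZFC3H1, the scaffold of PAXT, was at 0.28 with the same libraries at its ends, 45.45 and 145.1 CPM. PABPN1, the nuclear poly(A)-binding protein, was at -0.10, with clone A1 replicate A at 13.02 CPM and clone A4 replicate C at 43.71 CPM as its ends. For PABPN1, 39.3% of the annotated exon bases lie also in the readthrough gene BCL2L2-PABPN1 on the same strand, and how reads there were assigned is not given in the sources used here, so its counts are uncertain.

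Integrator genes showed no shared direction in the NCBP2 arm, with 6 of the 14 fitted above 0 and 8 below, a median of -0.04 and values from -0.21 for INTS9 to 0.19 for INTS8. Without clone A1 replicate A, 10 of the 14 were above 0 (median 0.03), and in clone A1 against vector the count went from 6 to 11 of 14. Without clone A4 replicate B, and again with counts taken without regard to strand, 4 of the 14 were above 0 in the NCBP2 arm. In the cleavage module, INTS11 (ENSG00000127054.20, chr1:1311585-1324687, minus strand), the endonuclease, was at 3.062, 13.5 and 12.02 CPM in the clone A1 libraries, at 8.98, 9.259 and 19.41 CPM in those of clone A4 and at 12.43, 15.16 and 9.832 CPM with empty vector. Clone A1 replicate A was far below every other library, and the groups overlapped. Its log2 fold change in the NCBP2 arm was -0.18 (SE 0.402 and adjusted p = 0.999 by edgeR). INTS9, the catalytically inactive partner of INTS11, was at 15.2, 18.28 and 19.07 CPM in the clone A1 libraries, at 19.53, 18.93 and 17.56 CPM in those of clone A4 and at 19.02, 26.48 and 17.42 CPM with empty vector. Vector replicate B alone stood out, and without it the log2 fold change of INTS9 was -0.01, beside -0.21 with it (SE 0.185 and adjusted p = 0.999 by edgeR). INTS4, the scaffold of the module, was the steadiest of the 30 genes, at 50.36 to 64.15 CPM over the 9 libraries and at 0.01 in the NCBP2 arm.

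INTS10, INTS13 and INTS14 belong to the tail module. INTS10 was at 70.88, 64.1 and 65.93 CPM in the clone A1 libraries, at 57.63, 54.87 and 56.02 CPM in those of clone A4 and at 65.87, 62.08 and 70.63 CPM with empty vector. Clone A4 lay below both other groups without overlap (over all genes, 5.86% lay below vector in this way and 5.72% below clone A1), while clone A1 and vector overlapped. Its log2 fold change was -0.24 against vector (SE 0.151 and adjusted p = 1 by edgeR) and -0.25 against clone A1 (SE 0.151 and adjusted p = 0.804 by edgeR), with neighbours at 0.09 and 0.03. INTS14 was at 53.63, 68.48 and 69.79 CPM in the clone A1 libraries, at 56.25, 60.65 and 49.84 CPM in those of clone A4 and at 65.87, 61 and 65.07 CPM with empty vector. Clone A4 was below vector for INTS14 with the nearest libraries at 60.65 and 61 CPM, and its log2 fold change was -0.20 (SE 0.169 and adjusted p = 1 by edgeR). INTS13 was at 70.91, 56.98 and 69.32 CPM in the clone A1 libraries, at 55.51, 41.45 and 53.29 CPM in those of clone A4 and at 61.28, 38.21 and 59.75 CPM with empty vector. It did not overlap between the clones, at -0.39 (SE 0.213 and adjusted p = 0.79 by edgeR), and overlapped between clone A4 and vector.

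Counted over the 30 genes, 4 did not overlap between clone A4 and vector (EXOSC9 above, and EXOSC6, INTS10 and INTS14 below), beside 12.1% of all genes (6.2% above and 5.86% below). Between the clones 6 did not overlap (EXOSC2, EXOSC8, EXOSC9, INTS2, INTS10 and INTS13), beside 13.7% of all genes, and in each of them clone A4 was the lower. For clone A4 lying below clone A1 the share over all genes was 5.72%, and for clone A4 above it was 7.96%. None of these 6 passed the edgeR test after adjustment.

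INTS1 and INTS5 both had their lowest level in clone A1 replicate A. INTS1, a backbone subunit, ran from 19.07 CPM there to 103.7 CPM in clone A4 replicate C. INTS5, of the shoulder, ran from 2.323 CPM there to 10.53 CPM in clone A1 replicate C, with vector replicate B (10.5 CPM) and clone A4 replicate C (10.48 CPM) close to that. Their log2 fold changes in the NCBP2 arm were -0.08 (SE 0.383) and -0.04 (SE 0.377). INTS2 was at 0.13, INTS7 at -0.08 and INTS12 at 0.04 in the backbone, and INTS8 at 0.19 in the shoulder. INTS6, which links Integrator to PP2A, was at 0.17 (SE 0.214). INTS3, which also belongs to a complex that binds single-stranded DNA, was at -0.04 (SE 0.183).

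The partners and substrates of the same machinery were examined as 6 lists of 89 genes, of which 81 had enough counts. At an adjusted p of 0.05 by edgeR, 0 of the 81 were called in each of the 4 comparisons. Over all genes the shares called were also small, at 0.0184%, 0.0646%, 0.115% and 0.161%, so a count of 0 says little about these lists. The 20 nuclear decay cofactors include TRAMP subunits, ARS2 partners and cap-binding proteins other than NCBP2. They had 0 genes at an unadjusted p under 0.05 in the NCBP2 arm, beside 5.71% of all genes, and a median log2 fold change of 0.02. The 2 with the lowest p were RBM26 at 0.30 (SE 0.217 and adjusted p = 0.999 by edgeR) and PHAX, the export adaptor of small nuclear RNAs, at 0.29 (SE 0.217, adjusted p = 0.999). Of 7 cytoplasmic decay genes, 6 were fitted above 0, beside 53% of all genes, and 1 had an unadjusted p under 0.05, beside 5.71% of all genes. That gene, DIS3L, the nuclease of the cytoplasmic exosome, was at 59.62, 46.84 and 59.14 CPM in the clone A1 libraries, at 46.77, 49.02 and 42.99 CPM in those of clone A4 and at 39.53, 39.21 and 39.96 CPM with empty vector. All 6 NCBP2 libraries exceeded the 3 vector libraries, which lay within 1 CPM of each other, a separation found with the NCBP2 libraries above for 1.47% of all genes. The log2 fold change was 0.36 (SE 0.156 and adjusted p = 0.832 by edgeR), and 0.23 with counts taken without regard to strand. DIS3L2, a nuclease that acts without the exosome, was at 0.16 (SE 0.171 and adjusted p = 0.999 by edgeR).

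Among 8 partners of Integrator, NABP1, a single-stranded DNA-binding protein found with INTS3, was at 122.8, 93.89 and 113.4 CPM in the clone A1 libraries, at 136.7, 107.3 and 100.4 CPM in those of clone A4 and at 77.27, 56.75 and 102.2 CPM with empty vector. Vector replicate C lay inside the NCBP2 range and the other 2 vector libraries below it, and the log2 fold change was 0.51 (SE 0.19 and adjusted p = 0.697 by edgeR). INIP, of the same complex, was at 0.30 (SE 0.211 and adjusted p = 0.999 by edgeR). The small nuclear RNA genes, classical substrates of Integrator, had 10 of 18 members with enough counts. RNU5A-1 was at 377.2, 195.5 and 121 CPM in the clone A1 libraries, at 60.49, 213.5 and 84.98 CPM in those of clone A4 and at 104.8, 110.3 and 69.61 CPM with empty vector. The clone A1 libraries all lay above the vector libraries (log2 fold change 1.28, SE 0.461, adjusted p = 0.492 by edgeR), while clone A4 overlapped both. Without the filter on low counts RNU5A-1 passed in clone A1 against vector (log2 fold change 1.25, adjusted p = 6.15e-06 by edgeR). In that fit 312 of 37715 genes passed, beside 14 of 21682 with the filter. RNU5A-1 itself had 2853 to 10719 counts and was kept by the filter, and its fold change was nearly the same in both fits. In the NCBP2 arm the log2 fold change was 0.89 (SE 0.46 and adjusted p = 0.921 by edgeR), and 0.50 without clone A1 replicate A. RNVU1-18, a variant U1 gene with under 2 CPM in every library, was at 0.85 (SE 1.05 and adjusted p = 0.999 by edgeR) and turned to -0.09 in a limma voom fit. These genes have near-identical copies, so their counts are uncertain.

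The 16 immediate early genes, whose transcription Integrator is known to regulate, had a median log2 fold change of -0.19 in the NCBP2 arm beside 0.02 over all genes, with 14 of 16 fitted below 0, beside 53% of all genes fitted above it. Of these, 3 had an unadjusted p under 0.05, beside 5.71% of all genes. EGR2, a zinc-finger factor, was at -1.24 (SE 0.463 and adjusted p = 0.697 by edgeR) and had at most 3.122 CPM, in vector replicate B, without which it was at -0.64. EGR1, its relative, was at 22.52, 35.03 and 32.1 CPM in the clone A1 libraries, at 25.66, 41.04 and 24.3 CPM in those of clone A4 and at 38.45, 80.23 and 30.23 CPM with empty vector. The groups overlapped, vector replicate B was far above every other library, and the log2 fold change was -0.72 (SE 0.281 and adjusted p = 0.746 by edgeR). Without that library it was -0.19. The 20 host RNAs of small nucleolar RNAs, known substrates of nuclear decay, had a median of -0.17 beside 0.02 over all genes. Of them, 15 were fitted below 0, beside 53% of all genes fitted above it. At an unadjusted p under 0.05 by edgeR there was 1 of the 20, beside 5.71% of all genes. SNHG29 was at -0.50 (SE 0.209 and adjusted p = 0.805 by edgeR) and SNHG6 at -0.40 (SE 0.194 and adjusted p = 0.904 by edgeR). RNA stability was not measured.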

How the data were processed

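The deposited tables hold raw read counts per gene, with no normalization by the authors. STAR 2.7.1a and the build GRCh38 are named per the submitters' processing notes, and the annotation and counting settings are not given in the sources used here. Each table has 3 count columns, and the second, which held most of the stranded counts, was read from the values as the strand of the gene. The lines that name no gene, 44.5% to 63.6% of a library's reads, were left out. Of 60609 identifiers, 60295 matched GENCODE release 44, from which symbols, lengths and coordinates come.

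Counts were tested with edgeR 4.0.16 in R 4.3.3 (quasi-likelihood, robust, filterByExpr, TMM scaling, Benjamini-Hochberg threshold 0.05), with 2 groups for the NCBP2 arm and 3 groups for the clone comparisons. Log2 CPM used a prior count of 2. Fits were tested on simulated data. Alternatives were DESeq2 1.42.0, limma voom 3.58.1, other scalings, no filter, unstranded counts, a replicate block, each library left out, and, added after the data were seen, a correction for GC content and length and TPM by canonical length. The genes and lists were chosen with earlier results of these data known. Values per library and a fold change are given for the 6 of the 30 genes with the lowest unadjusted p in the NCBP2 arm. The same holds for the 4 lowest in each clone comparison. An adjusted p in at least 1 comparison is given for all of these but EXOSC7. For the 2 lowest of each other list the fold change and adjusted p are given. Of those, DIS3L, NABP1, RNU5A-1 and EGR1 have values per library. TPM are given for the highest and lowest gene of each complex, and other values were named after they were seen. No batch or date is given in the labels, so no values within batches were computed.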

Additional observations from a re-analysis of the deposited data

Results flagged for a closer look

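INTS5, a shoulder subunit of Integrator, had 1 library far from the rest of the NCBP2 arm. It was at 2.323 CPM in clone A1 replicate A and at 7.598 to 10.53 CPM in the other 5 NCBP2 libraries, and the gap to the nearest of them was 0.783 of the whole range on the log2 CPM scale, past Dixon's 95% critical value for 6 libraries. No other gene of the 30 passed that value, and chance alone exceeds it in about 1 in 20 groups. The same library was the lowest of the 9 for INTS1, INTS3, INTS4, INTS9, INTS11, EXOSC4 and PABPN1.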

How the results depend on the processing

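In all alternatives run, 0 of the 30 genes passed an adjusted p of 0.05. Of 807 values computed under them, 788 were counted as unchanged by a loose rule. For the fold change of a gene that means only the same direction and the same side of the threshold. For medians, levels and neighbours it means a shift smaller than an SD between libraries, and for counts of genes a small change. A median could change sign within that bound. The count of 788 does not show that fold changes kept their size, since the rule for them ignores size. The log2 fold change of MTREX ran from 0.1 to 0.57 in the NCBP2 arm. That of EXOSC5 ran from 0.259 to 1.055 in clone A4 against vector, while INTS10 between the clones kept to -0.288 to -0.201. With a limma voom fit the median log2 fold change over the 30 genes was -0.009 in the NCBP2 arm, 0.061 in clone A1 against vector, -0.043 in clone A4 against vector and -0.103 between the clones, and with the correction for GC content and length it was 0.044, 0.145, -0.025 and -0.136 (without either 0.076, 0.174, 0.009 and -0.196). RNVU1-18 turned to -0.086 with limma voom. Leaving out 1 library at a time, the median lay between 0.015 and 0.106 in the NCBP2 arm, 0.075 and 0.176 for clone A1 against vector, -0.097 and 0.023 for clone A4 against vector, and -0.245 and -0.103 between the clones. Where the median changed sign, the cause was not tested. Without the filter on low counts, 2 other pathway genes passed in clone A1 against vector, beside 312 of 37715 genes. These were RNU5A-1 and RNU5B-1, named after their values were seen, and both also passed between the clones, beside 231. Their counts ran from 2853 to 10719 and from 5243 to 30277. In clone A1 their log2 fold changes were 1.25 (adjusted p = 6.15e-06 by edgeR) and 0.79 (adjusted p = 0.0238), and between the clones -0.93 and -1.09. With the filter RNU5A-1 had an adjusted p of 0.492 by edgeR in clone A1 against vector. Over all genes tested, the number called was 4, 14, 25 and 35 in the 4 comparisons, 108, 274, 185 and 246 with DESeq2, 216, 297, 233 and 149 with limma voom, 20, 312, 163 and 231 without the filter, and 49, 184, 135 and 188 with the GC and length correction. Deviations from the group means correlated over 0.1 in 6 of 9 same-lettered pairs (r from -0.102 to 0.179) and in 4 of 18 others (-0.271 to 0.221), and 4 of 9 libraries correlated best with one of their own letter. Since not every same-lettered pair did so and the labels give no shared origin, the letters were not taken as pairs. With a replicate block, 0 of the 30 genes were called and 13, 38, 53 and 51 of all genes, and the medians were 0.073, 0.178, -0.004 and -0.19. Counting depth limits EXOSC4, EXOSC5, INTS5 and INTS11, which had under 100 counts in at least 1 library.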
